A study of Arabidopsis thaliana with 8 samples.

Results

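Rosettes of wild-type *Arabidopsis thaliana* treated with imazethapyr (WT IM) were compared with rosettes of the untreated *ros1* mutant (*ros1* control), 4 of the 8 libraries of the series, to ask which transcripts were as high in the untreated mutant as in the treated wild type and which stress transcripts stood high in the treated wild type alone. WT IM plants were Col-0 plants, 3 weeks old, sprayed with 10.6 g per ha of imazethapyr together with 0.5% v/v of the adjuvant Dash and collected after 48 h. The *ros1* control plants, of the same age, carried a hypomorphic T-DNA insertion allele of *ROS1* and received no herbicide, and the untreated wild type (WT control) served as the starting level. Each group had 2 libraries, each from the entire rosettes of 2 plants, and the mutant was represented by 1 line. Whether untreated plants were sprayed with Dash is not stated, and genotype and treatment both differ between WT IM and *ros1* control, so the values describe 2 states and their causes cannot be told apart.

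Expression was given as FPKM (fragments scaled to transcript length and to the mapped fragments of the library), 1 pooled value per group over its 2 libraries. With no value per library, no standard deviation could be computed and no test was run, so no difference below is set against the spread between replicates. The authors' own test columns were not used. A gene was counted as higher in a group when its FPKM was at least 2-fold that of the other group and at least 1 in the higher group. Values in WT IM, *ros1* control and WT control were at hand for 32920 of the 34133 genes, and 18902 of them reached an FPKM of 1 in WT IM or *ros1* control (called expressed below). The median log2 ratio of WT IM over *ros1* control was −0.03 over the 16505 genes that reached an FPKM of 1 in each of the 3 groups. The leaf markers *RBCS1A*, *LHCB1.3* and *RCA* ranged over 966 to 6115 FPKM in WT IM, 4339 to 26309 in *ros1* control and 4380 to 27669 in WT control, while the flower markers reached at most 0.54 FPKM in WT IM, where 5 of the 6 had a value, 0.83 in *ros1* control and 0.70 in WT control. The root β-glucosidase gene *PYK10* had 15.7 FPKM in WT IM, 67.2 in *ros1* control and 50.0 in WT control. In whole rosettes, fewer cells of a type and less RNA per cell cannot be told apart.

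*ROS1* (AT2G36490), the gene that the mutation targets, did not separate the groups, with 16.7 FPKM in WT IM, 19.0 in *ros1* control and 25.0 in WT control. The group labelled *ros1* control thus had 1.32-fold less *ROS1* transcript than WT control and 1.14-fold more than WT IM, and *ROS1* was at 4.08 FPKM in treated *ros1* plants. "*ros1* control" below stands for the plants so labelled. *ALS* (AT3G48560), which encodes acetolactate synthase, the target of the herbicide, had 193 FPKM in WT IM, against 308 in *ros1* control and 293 in WT control.

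Plants answer biotic and abiotic stress through partly separate hormone pathways. Salicylic acid, made from isochorismate, drives the receptors NPR1, NPR3 and NPR4 and the transcription of *PATHOGENESIS-RELATED* (*PR*) genes, with WRKY and TGA factors that bind W-boxes and TGACG elements. Abscisic acid releases SnRK2 kinases from PP2C phosphatases and acts on dehydrin and LEA genes through bZIP factors that bind ABRE elements with an ACGTG core. Imidazolinones such as imazethapyr block the synthesis of branched-chain amino acids, and ROS1 is a DNA glycosylase that removes methylated cytosine, so that its loss leaves some promoters more methylated.

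The promoters of 4 genes are shown, 1 from the genes as high in the untreated mutant and 3 with wide gaps toward the treated wild type, the 250 bases before the transcription start as annotated by RefSeq on TAIR10.1, written 5′ to 3′ on the strand of the gene. *PNP-A* (chr2:8091737-8091986, minus strand) was raised by treatment and 1.31-fold above WT IM in *ros1* control, a gap under the 2-fold mark. *RAB18* (chr5:26519448-26519697, minus strand), *RD29B* (chr5:21236771-21237020, plus strand) and *DFR* (chr5:17166033-17166282, minus strand) were far higher in WT IM. Capitals mark TTGAC, the W-box core, in *PNP-A*, and ACGTG, the ABRE core, on either strand in the other 3. The TTGAC of *PNP-A* is followed by g and so overlaps a TGACG, the element of TGA factors. Which of these factors, if any, binds there was not tested.
PNP-A: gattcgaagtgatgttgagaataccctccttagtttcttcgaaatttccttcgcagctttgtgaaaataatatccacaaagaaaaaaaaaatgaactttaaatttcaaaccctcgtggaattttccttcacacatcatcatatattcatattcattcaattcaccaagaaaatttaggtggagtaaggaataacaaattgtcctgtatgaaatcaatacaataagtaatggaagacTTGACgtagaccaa
RAB18: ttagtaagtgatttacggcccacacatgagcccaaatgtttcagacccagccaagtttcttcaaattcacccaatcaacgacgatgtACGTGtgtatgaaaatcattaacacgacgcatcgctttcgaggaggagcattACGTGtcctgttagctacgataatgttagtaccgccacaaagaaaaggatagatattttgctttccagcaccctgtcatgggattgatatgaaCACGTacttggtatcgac
RD29B: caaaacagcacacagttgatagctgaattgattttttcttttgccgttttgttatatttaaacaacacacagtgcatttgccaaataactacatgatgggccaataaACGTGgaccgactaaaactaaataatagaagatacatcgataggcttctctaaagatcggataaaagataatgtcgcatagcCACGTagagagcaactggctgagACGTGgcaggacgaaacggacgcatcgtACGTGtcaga
DFR: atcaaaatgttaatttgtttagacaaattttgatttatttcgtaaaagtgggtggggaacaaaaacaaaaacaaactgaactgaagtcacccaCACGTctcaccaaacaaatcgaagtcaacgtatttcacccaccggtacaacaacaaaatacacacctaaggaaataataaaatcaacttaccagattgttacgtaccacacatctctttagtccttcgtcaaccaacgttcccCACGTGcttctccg

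Transcripts at least 2-fold apart were split almost evenly between the groups. Of the 18902 expressed genes, 3135 (16.6%) were higher in WT IM and 3227 (17.1%) were higher in *ros1* control, while 12540 differed by less. Of these, 2726 and 2997 are listed in the deposited sheet for this pair. The lower group was at 0 for 239 of the genes higher in WT IM and for 70 of those higher in *ros1* control. Set against WT control, the 3135 genes fell into those that imazethapyr raised at least 2-fold while *ros1* control lay within 2-fold of WT control (1135), those raised while *ros1* control lay at least 2-fold below WT control (365) or above it (269), those not raised but with *ros1* control at least 2-fold below WT control (924), and the remainder (442). The 3227 genes were mostly ones that the herbicide lowered, 2240 of them with *ros1* control within 2-fold of WT control, and 426 were not lowered but at least 2-fold higher in *ros1* control than in WT control.

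**Figure D1:**
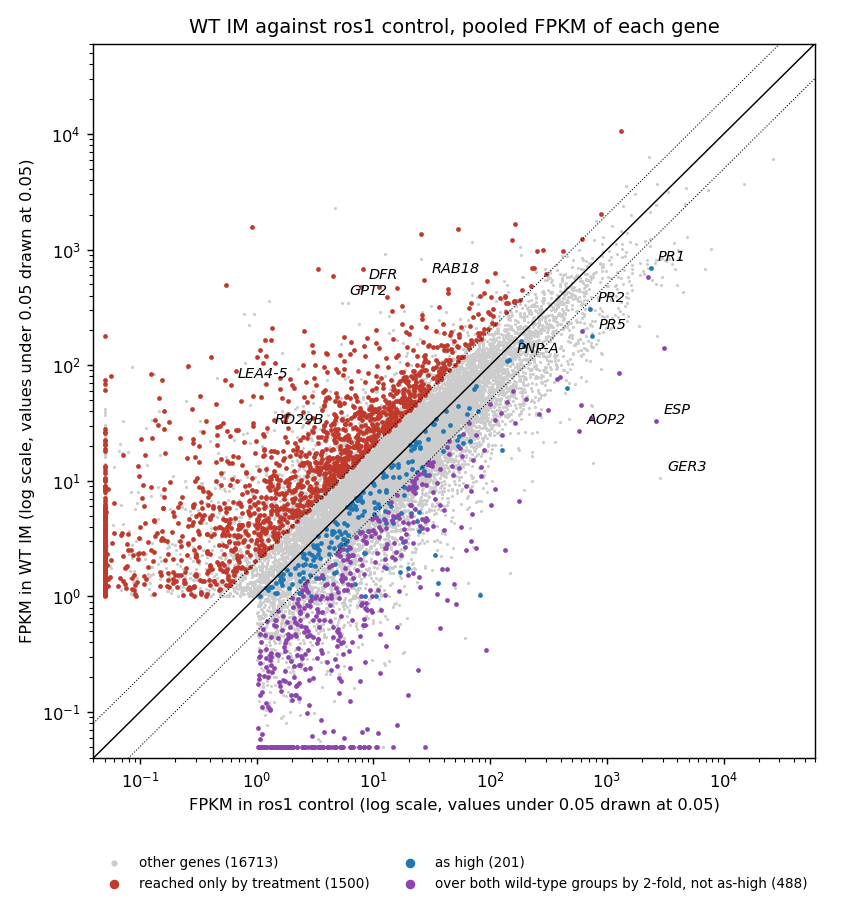
Pooled FPKM of each of 18902 genes in WT IM (vertical axis) and *ros1* control (horizontal axis), both on log scales. The solid line marks equal values and the dotted lines a 2-fold difference. Red points (1500 genes) were raised by treatment alone, blue points (201) were raised by treatment and as high in *ros1* control, and purple points (488) were at least 2-fold higher in *ros1* control than in both wild-type groups without being raised by treatment. *PR1* and *PR2* lie below the line of equal values and *RAB18*, *DFR* and *GPT2* far above it.

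Imazethapyr raised 2783 genes at least 2-fold over WT control in the wild type, and their level in the untreated mutant sorted them into 4 states. In 201 of them (7.22%) *ros1* control was at or above WT IM, called as high here. In 503 (18.1%) *ros1* control was below WT IM and yet at least 2-fold over WT control, called partly reached. In 1500 (53.9%) *ros1* control was under 2-fold over WT control and WT IM at least 2-fold over *ros1* control, called reached only by treatment, and the other 579 (20.8%) fell between these. *ros1* control was at least 2-fold over WT control in 704 of the 2783 raised genes (25.3%) and in 1348 of all 18902. With an FPKM of at least 1 in *ros1* control also asked for, the count over all 18902 was 1221 (6.46%). WT control is the starting level of both groups, so a low WT control value alone moves a gene toward shared rises, and these counts are descriptions. Separately, 543 genes were at least 2-fold higher in *ros1* control than in both wild-type groups, and 55 of them are also among the 201.

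Among the genes that imazethapyr raised, those of salicylic acid and defence were the listed group with members as high in the untreated mutant. Of 30 genes, 4 (13.3%) were higher in WT IM and 13 (43.3%) in *ros1* control, against 16.6% and 17.1% of all expressed genes. The median log2 ratio of WT IM over *ros1* control was −0.41 (pseudocount of 1), against −0.001 over all 18902 genes. Of the 15 genes that imazethapyr raised, 11 were as high in *ros1* control, 4 were partly reached and 0 were reached only by treatment. In *ros1* control 24 of the 30 were at least 2-fold over WT control, against 1348 of the 18902. The list was chosen with earlier results of these libraries known, so its direction is no independent evidence.

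Among the effectors, the antimicrobial marker gene *PR1* (AT2G14610) had 688 FPKM in WT IM, against 2364 in *ros1* control and 8.41 in WT control. It was thus 3.44-fold higher in the untreated mutant than in the treated wild type, although treatment alone had raised it 81.8-fold. The β-1,3-glucanase gene *PR2* (AT3G57260) had 304 FPKM in WT IM, 722 in *ros1* control and 11.8 in WT control. For the thaumatin-like *PR5* (AT1G75040) the values were 178 FPKM in WT IM, 741 in *ros1* control and 62.8 in WT control. These 3 transcripts shared a middle place for WT IM, under *ros1* control and over WT control. *PNP-A* (AT2G18660), which encodes a secreted natriuretic-like peptide, kept the same order with a smaller gap, at 111 FPKM in WT IM, 146 in *ros1* control and 10.4 in WT control.

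Genes of salicylic acid synthesis and its control lay closer together. *ICS1* (AT1G74710), the isochorismate synthase that commits chorismate to salicylic acid, had 12.1 FPKM in WT IM, 27.1 in *ros1* control and 4.31 in WT control. *EDS5* (AT4G39030), the carrier that exports isochorismate from the plastid, had 8.16 FPKM in WT IM, 15.9 in *ros1* control and 4.09 in WT control. *PBS3* (AT5G13320), which conjugates isochorismate to glutamate, ran the other way at 26.0 FPKM in WT IM, 17.3 in *ros1* control and 2.47 in WT control. The transcription factor genes that turn *ICS1* on, *CBP60G* (AT5G26920) at 20.9, 23.0 and 8.87 FPKM and *SARD1* (AT1G73805) at 24.5, 29.9 and 15.0 FPKM in WT IM, *ros1* control and WT control, were nearly equal in WT IM and *ros1* control.

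Some other regulators of the pathway gave wider gaps in favour of the mutant. *WRKY38* (AT5G22570) had 3.71 FPKM in WT IM, 24.5 in *ros1* control and 1.23 in WT control. *GRX480* (AT1G28480), a glutaredoxin that binds TGA factors, had 5.24 FPKM in WT IM, 21.0 in *ros1* control and 1.25 in WT control. *NIMIN1* (AT1G02450), whose protein binds NPR1, had 8.94 FPKM in WT IM, 62.2 in *ros1* control and 14.1 in WT control. *NIMIN1* was therefore below its starting level in the treated wild type and above it in the mutant. *PAD4* (AT3G52430), a lipase-like partner of EDS1, had 13.5 FPKM in WT IM, 47.4 in *ros1* control and 14.3 in WT control, and *WRKY54* (AT2G40750) had 18.5, 88.0 and 31.4 FPKM in these groups. The receptor genes *NPR1* and *NPR3* and *EDS1* differed by less than 2-fold between WT IM and *ros1* control, whereas *NPR4* (AT4G19660) had 14.7 FPKM in WT IM, 32.2 in *ros1* control and 15.9 in WT control.

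Genes that remove salicylic acid or its relatives were also reached in the untreated mutant. *DMR6* (AT5G24530), a salicylic acid hydroxylase, had 51.4 FPKM in WT IM, 203 in *ros1* control and 27.0 in WT control. The related hydroxylase *DLO1* (AT4G10500) had 5.79 FPKM in WT IM, 6.33 in *ros1* control and 0.52 in WT control. *UGT76B1* (AT3G11340), a glucosyltransferase, had 5.73 FPKM in WT IM, 6.49 in *ros1* control and 0.02 in WT control, where so low a level makes the fold over WT control imprecise.

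The 4 members of this list that were higher in WT IM include the 3 enzyme genes of N-hydroxypipecolic acid, the signal of systemic acquired resistance. *FMO1* (AT1G19250), which makes the last step, had 20.7 FPKM in WT IM, 4.56 in *ros1* control and 0.16 in WT control. *ALD1* (AT2G13810), the aminotransferase of the first step, had 3.12 FPKM in WT IM, 0.72 in *ros1* control and 0.02 in WT control. *SARD4* (AT5G52810), the reductase between them, had 39.3 FPKM in WT IM, 2.76 in *ros1* control and 40.0 in WT control. *FMO1* and *ALD1* were thus partly reached in the mutant, while *SARD4* had not moved with treatment and had a level in *ros1* control 14.5-fold below WT control. The fourth, *AIG1* (AT1G33960), a pathogen-induced GTPase gene, had 3.87 FPKM in WT IM, 1.87 in *ros1* control and 0.18 in WT control.

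**Figure D2:**
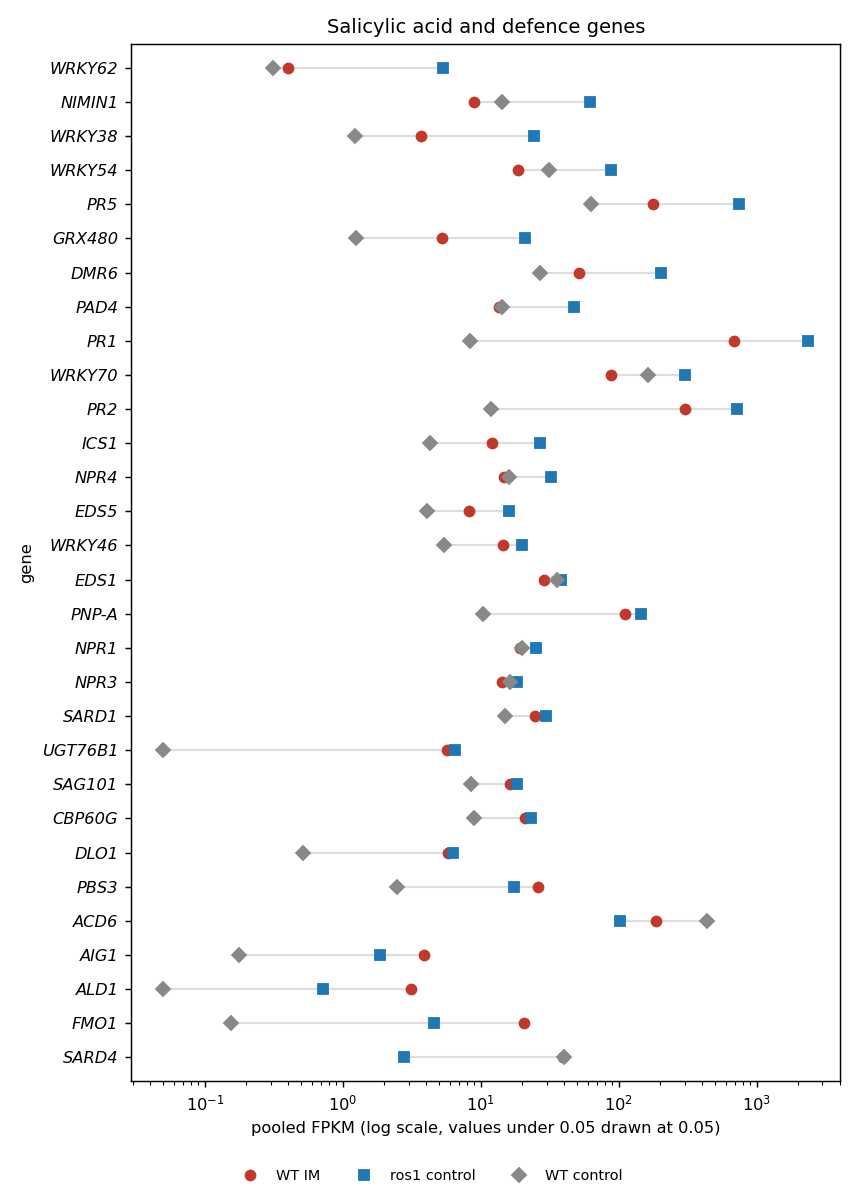
Pooled FPKM (log scale) of the 30 salicylic acid and defence genes in WT IM (red circles), *ros1* control (blue squares) and WT control (grey diamonds), sorted from the highest ratio of *ros1* control over WT IM at the top to the highest ratio of WT IM over *ros1* control at the bottom. The blue square lies right of the red circle from *WRKY62* down to *DLO1*, and the *PR1* pair stands at 688 and 2364 FPKM.

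Other genes among the 10 most abundant of the as-high state by level in the mutant were an aspartyl protease, a nuclease and a ubiquitin ligase gene. AT5G10760, annotated as a member of the aspartyl protease family, had 63.8 FPKM in WT IM, 458 in *ros1* control and 19.1 in WT control. *BBD1* (AT1G75380), annotated as a nuclease of basal defence, had 146 FPKM in WT IM, 196 in *ros1* control and 55.1 in WT control. *RING1* (AT5G10380), a RING-type ubiquitin ligase gene, had 108 FPKM in WT IM, 139.7 in *ros1* control and 21.0 in WT control. AT2G48121, annotated as a ribonuclease III family gene, was 1.03 FPKM in WT IM, 81.2 in *ros1* control and 0.45 in WT control, so it is in this state although treatment barely raised it. Across the 201 genes the median level in *ros1* control was 146% of that in WT IM, with quartiles of 115% and 214%, and 55 genes were at least 2-fold higher in *ros1* control. In treated *ros1* plants, with a value for 179 of them, 69 were at least 2-fold above *ros1* control and 23 at least 2-fold below it. The shares over all genes were not computed for these 2 counts.

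Cysteine-rich receptor-like kinases, cell-surface kinases known to follow pathogen and salicylic acid signals, were looked at after their values were seen. Of 26 expressed genes with this product name, 5 (19.2%) were higher in WT IM, near the 16.6% of all expressed genes. In *ros1* control 10 (38.5%) were higher, against 17.1%. Imazethapyr raised 11 of the 26, of which 6 were as high in *ros1* control, 3 were partly reached and 1 was reached only by treatment. Over all 2783 raised genes these shares were 7.22%, 18.1% and 53.9%. *CRK7* (AT4G23150) had 11.3 FPKM in WT IM, 28.1 in *ros1* control and 0.42 in WT control. *CRK4* (AT3G45860) had 8.53 FPKM in WT IM, 109 in *ros1* control and 8.42 in WT control, and *CRK36* (AT4G04490) had 19.7, 4.21 and 0.54 FPKM. Of the 26 genes 22 are on chromosome 4, many of them in tandem with similar sequences, and reads may be split between such copies.

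In camalexin synthesis, the tryptophan-derived phytoalexin pathway, 4 of the 8 genes were raised in both groups, and further with treatment. Of 8 genes, 5 (62.5%) were higher in WT IM and 1 (12.5%) in *ros1* control, against 16.6% and 17.1% of all expressed genes. All 4 camalexin genes that imazethapyr raised were partly reached in the mutant. *PAD3* (AT3G26830), the P450 of the last steps, had 201 FPKM in WT IM, 14.7 in *ros1* control and 1.85 in WT control. *CYP71A13* (AT2G30770), which makes indole-3-acetonitrile, had 67.2 FPKM in WT IM, 20.4 in *ros1* control and 3.93 in WT control, and *CYP71A12* (AT2G30750), a close copy of it, had 22.6, 3.98 and 0.58 FPKM. The untreated mutant thus stood at 7.30% to 30.3% of the treated wild type for these 3 genes. The regulator *WRKY33* (AT2G38470), at 40.2 FPKM in WT IM, 22.8 in *ros1* control and 25.2 in WT control, differed by less than 2-fold.

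Glutathione S-transferases, which join toxic compounds to glutathione, held the most partly reached genes of any list, and theirs is among the longest lists. Of 35 expressed members, 17 (48.6%) were higher in WT IM and 8 (22.9%) in *ros1* control, against 16.6% and 17.1% of all expressed genes. Of 18 that imazethapyr raised, 11 were partly reached and 7 reached only by treatment, against 18.1% and 53.9% of all 2783 raised genes. *GSTF2* (AT4G02520) had 1205 FPKM in WT IM, 780.1 in *ros1* control and 135 in WT control. *GSTF6* (AT1G02930) had 906 FPKM in WT IM, 182 in *ros1* control and 41.8 in WT control, and *GSTF7* (AT1G02920), its neighbour and near copy, had 293, 96.8 and 17.2 FPKM. *GSTU4* (AT2G29460), at 127 FPKM in WT IM, 19.6 in *ros1* control and 0.83 in WT control, and *GSTU3* (AT2G29470), at 36.1, 2.36 and 0.23 FPKM, were also partly reached, though reads may be shared between these tandem copies. In contrast, *GSTU24* (AT1G17170) had 73.9 FPKM in WT IM, 0.54 in *ros1* control and 1.60 in WT control. Among the genes that the study names, *GSTU25* (AT1G17180) had 4.67 FPKM in WT IM, 0.05 in *ros1* control and 0.47 in WT control, and *GSTF5* (AT1G02940) had 2.88, 0.06 and 0.36 FPKM. *GSTU27* (AT3G43800) ran the other way, at 40.6 FPKM in WT IM, 309.7 in *ros1* control and 97.0 in WT control.

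Genes of senescence and starvation were mostly raised by treatment, and their split by level in the mutant was near that of all raised genes. Of 27 genes, 16 (59.3%) were higher in WT IM and 2 (7.41%) in *ros1* control, against 16.6% and 17.1% of all expressed genes. Of 20 raised genes 12 were reached only by treatment, 5 partly and 0 were as high. Over all 2783 raised genes these shares were 53.9%, 18.1% and 7.22%. *SAG13* (AT2G29350), an early senescence marker, had 190.4 FPKM in WT IM, 36.3 in *ros1* control and 2.25 in WT control. The senescence NAC factor genes *NAP* (AT1G69490) and *ORE1* (AT5G39610) had 16.8 and 15.1 FPKM in WT IM, 1.21 and 2.21 in *ros1* control, and 0.29 and 0.27 in WT control. *NYE1* (AT4G22920), which starts chlorophyll breakdown, had 42.0 FPKM in WT IM, 10.1 in *ros1* control and 8.96 in WT control. The autophagy gene *ATG8B* (AT4G04620) had 102 FPKM in WT IM, 19.4 in *ros1* control and 13.6 in WT control. The late marker *SAG12* (AT5G45890) was low, at 2.06 FPKM in WT IM, and was listed at 0 in *ros1* control and WT control.

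Across all 503 partly reached genes the median level in *ros1* control was 46.0% of that in WT IM. Some of the most abundant came close to the treated level in the mutant. *EXT3* (AT1G21310), a cell wall extensin gene, had 348 FPKM in WT IM, 283 in *ros1* control and 46.1 in WT control. *FER1* (AT5G01600), which encodes an iron-storing ferritin, had 318 FPKM in WT IM, 209 in *ros1* control and 86.5 in WT control. *TRX5* (AT1G45145), a cytosolic thioredoxin gene, had 167 FPKM in WT IM, 143 in *ros1* control and 27.8 in WT control. At the other end, 2 genes passed the 2-fold mark over WT control in the mutant and yet were far below WT IM. *GPT2* (AT1G61800), which imports glucose 6-phosphate into plastids, had 348 FPKM in WT IM, 5.43 in *ros1* control and 2.52 in WT control. *DIP2* (AT5G03210) had 346 FPKM in WT IM, 6.09 in *ros1* control and 2.33 in WT control.

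Genes of abscisic acid and drought were mostly reached only by treatment. Of 24 expressed genes of this list, 19 (79.2%) were higher in WT IM and 0 in *ros1* control, against 16.6% and 17.1% of all expressed genes. The median log2 ratio over the list was 2.16. Of 16 that imazethapyr raised, 15 were reached only by treatment and 1, *RD29B*, was partly reached. The dehydrin gene *RAB18* (AT5G66400), whose promoter is printed above with 3 ACGTG cores, had 543 FPKM in WT IM, 27.0 in *ros1* control and 41.3 in WT control. *RD29B* (AT5G52300), with 4 ACGTG cores in its printed promoter, had 26.7 FPKM in WT IM, 1.23 in *ros1* control and 0.47 in WT control. *LEA4-5* (AT5G06760), a late embryogenesis abundant gene, had 66.7 FPKM in WT IM, 0.60 in *ros1* control and 2.90 in WT control. These protective protein genes were 20.1-fold, 21.6-fold and 112-fold higher in WT IM.

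Synthesis and feedback of abscisic acid followed the same pattern. *NCED3* (AT3G14440), the rate-limiting dioxygenase of its synthesis, had 13.6 FPKM in WT IM, 1.57 in *ros1* control and 1.65 in WT control. The PP2C phosphatase genes *HAI1* (AT5G59220), at 123 FPKM in WT IM, 5.16 in *ros1* control and 5.89 in WT control, and *HAI2* (AT1G07430), at 53.4, 1.08 and 2.85 FPKM, are repressors that the hormone itself turns on. *PP2CA* (AT3G11410) had 193 FPKM in WT IM, 19.1 in *ros1* control and 69.5 in WT control. *P5CS1* (AT2G39800), of proline synthesis, had 534 FPKM in WT IM, 94.6 in *ros1* control and 118 in WT control. For *NCED3*, *HAI1* and *P5CS1* the untreated wild type was 1.05-fold, 1.14-fold and 1.25-fold above the untreated mutant.

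Some drought and cold genes were far apart in that the mutant lay below the untreated wild type. *RD29A* (AT5G52310) had 220.5 FPKM in WT IM, 0.86 in *ros1* control and 118 in WT control, so treatment raised it 1.87-fold while the mutant was 137-fold below WT control. *RD20* (AT2G33380), a caleosin gene, had 226 FPKM in WT IM, 7.48 in *ros1* control and 119.7 in WT control. *COR15A* (AT2G42540), which encodes a chloroplast protein that protects membranes in the cold, had 1510.4 FPKM in WT IM, 53.4 in *ros1* control and 533 in WT control. Of 12 expressed cold genes, 10 (83.3%) were higher in WT IM and 0 in *ros1* control, against 16.6% and 17.1% of all expressed genes. Imazethapyr raised 5 of the 12, all reached only by treatment. For 8 of the 12 *ros1* control lay at least 2-fold below WT control, against 1896 of all 18902 expressed genes. *KIN1* (AT5G15960) had 104 FPKM in WT IM, 1.12 in *ros1* control and 13.0 in WT control, and its tandem copy *KIN2* (AT5G15970) had 1054, 181 and 984 FPKM. Reads of these copies may be split between them.

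Flavonoid and anthocyanin genes showed the same combination, raised by treatment and low in the mutant. Of 26 expressed genes, 21 (80.8%) were higher in WT IM and 1 (3.85%) in *ros1* control, against 16.6% and 17.1% of all expressed genes. The median log2 ratio over the list was 3.10. Of 18 that imazethapyr raised, 18 were reached only by treatment. For 17 of the 26 *ros1* control lay at least 2-fold below WT control, against 1896 of all 18902 expressed genes. The first enzyme gene, chalcone synthase *TT4* (AT5G13930), had 1216 FPKM in WT IM, 153 in *ros1* control and 372 in WT control. *TT7* (AT5G07990), the flavonoid 3′-hydroxylase, had 208 FPKM in WT IM, 1.36 in *ros1* control and 13.7 in WT control. For *DFR* (AT5G42800), the reductase at the entry to anthocyanins, whose printed promoter holds ACGTG in a palindrome 9 to 14 bases before the start, the values were 478 FPKM in WT IM, 7.90 in *ros1* control and 31.1 in WT control. *LDOX* (AT4G22880), the next enzyme, had 478 FPKM in WT IM, 11.2 in *ros1* control and 39.3 in WT control. The early genes *TT5*, *TT4* and *CHIL* were 4.02-fold, 7.97-fold and 8.77-fold higher in WT IM, *TT7* was 153-fold higher, and the later *LDOX* and *DFR* were 42.7-fold and 60.5-fold higher. *MYB75* (AT1G56650) and *MYB90* (AT1G66390), the MYB activators of the late genes, had 105 and 98.1 FPKM in WT IM, 1.43 and 0.26 in *ros1* control, and 14.1 and 1.14 in WT control. Decoration of the pigment followed, with the glycosyltransferase gene *UF3GT* (AT5G54060) at 136 FPKM in WT IM, 1.06 in *ros1* control and 15.4 in WT control, and the transport gene *GSTF12* (AT5G17220) at 462, 16.0 and 36.5 FPKM.

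**Figure D3:**
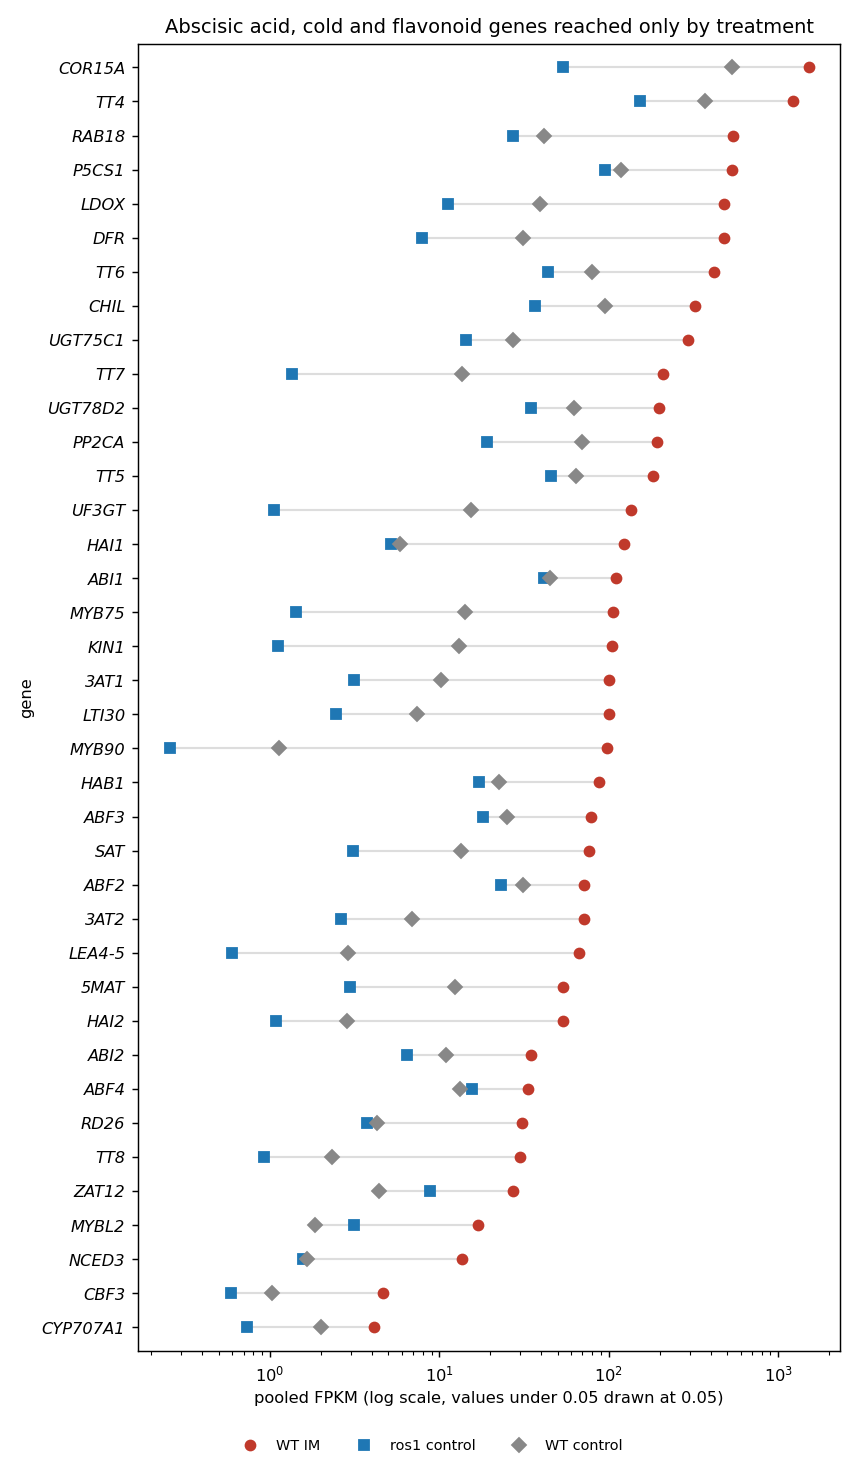
Pooled FPKM (log scale) in WT IM (red circles), *ros1* control (blue squares) and WT control (grey diamonds) of the abscisic acid, cold and flavonoid genes that were reached only by treatment, ordered by their level in WT IM. Red circles lie at the right end of each line, and blue squares mostly lie at or left of the grey diamonds, as for *RAB18* (543, 27.0 and 41.3 FPKM) and *MYB90* (98.1, 0.26 and 1.14 FPKM).

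Heat and mitochondrial stress genes were divided between those higher in WT IM and those within 2-fold, with few in the other direction. Of 13 expressed heat shock genes, 7 (53.85%) were higher in WT IM and 0 in *ros1* control, against 16.6% and 17.1% of all expressed genes. Of 7 raised heat shock genes 5 were reached only by treatment, against 53.9% of all 2783 raised genes. The chaperone gene *HSP70-4* (AT3G12580) had 97.1 FPKM in WT IM, 3.81 in *ros1* control and 5.05 in WT control. Of 20 genes of oxidative and mitochondrial stress, 10 were higher in WT IM and 2 in *ros1* control, and of 11 raised genes 7 were reached only by treatment and 3 partly. *AOX1A* (AT3G22370), the alternative oxidase that bypasses part of the respiratory chain, had 168 FPKM in WT IM, 14.7 in *ros1* control and 18.2 in WT control. *UPOX* (AT2G21640), a marker of oxidative stress, had 125 FPKM in WT IM, 4.01 in *ros1* control and 13.7 in WT control. *NAC013* (AT1G32870), a factor of mitochondrial retrograde signalling, had 52.1 FPKM in WT IM, 1.64 in *ros1* control and 8.16 in WT control. The iron superoxide dismutase gene *FSD1* (AT4G25100) ran the other way, at 197 FPKM in WT IM, 615 in *ros1* control and 239 in WT control.

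Over the 1374 genes reached only by treatment that were not at 0 in the mutant, the median level in *ros1* control was 24.4% of that in WT IM, with quartiles of 10.6% and 37.8%. WT IM was at least 8-fold over *ros1* control in 524 of the 1500, and the other 126 not counted in the median were at 0 in *ros1* control. By level, the first was the metallothionein gene *MT2A* (AT3G09390), with 10679.7 FPKM in WT IM, 1326 in *ros1* control and 1806 in WT control. The dehydroascorbate reductase gene *DHAR1* (AT1G19570) had 976 FPKM in WT IM, 250.4 in *ros1* control and 419 in WT control, and the annexin gene *ANNAT1* (AT1G35720) had 999.7 FPKM in WT IM, 283 in *ros1* control and 330.3 in WT control. *ELIP1* (AT3G22840), which encodes an early light-induced protein of the thylakoid, had 681 FPKM in WT IM, 8.14 in *ros1* control and 13.1 in WT control, the widest gap toward WT IM among genes of at least 5 FPKM in WT IM and *ros1* control. The uncharacterized AT1G76960 had 1575 FPKM in WT IM, 0.90 in *ros1* control and 49.6 in WT control. Of the 1347 genes of this state with a value in treated *ros1* plants, 1042 were at least 2-fold higher there than in *ros1* control. Values in treated *ros1* plants were at hand for listed genes alone. The share over all genes was not computed, so the 1042 are a description. For those 1042 the state names what stood low in the untreated mutant and not what the mutant could not raise. Other genes of the state did not rise there. In treated *ros1* plants AT1G76960 was at 0.73 FPKM, *TT7* at 0.98, *UF3GT* at 0.48 and *COR15A* at 8.74.

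Of 25 expressed jasmonic acid genes, 9 (36.0%) were higher in WT IM and 1 (4.0%) in *ros1* control, against 16.6% and 17.1% of all expressed genes. However, imazethapyr had raised 3 of the 25, against 2783 of all 18902. For 7 of the 25 *ros1* control lay at least 2-fold below WT control, against 1896 of the 18902. The vegetative storage gene *VSP1* (AT5G24780) had 33.7 FPKM in WT IM, 5.82 in *ros1* control and 26.4 in WT control. *ORA59* (AT1G06160), an activator of defensins, had 8.30 FPKM in WT IM, 2.05 in *ros1* control and 0.37 in WT control. Of 15 genes of branched-chain amino acid synthesis, 2 (13.3%) were higher in WT IM and 3 (20.0%) in *ros1* control, near the shares over all expressed genes. *VAT1* (AT5G16290), a regulatory subunit of acetolactate synthase, had 33.9 FPKM in WT IM, 3.49 in *ros1* control and 37.8 in WT control. *BCAT2* (AT1G10070), an aminotransferase, had 13.5 FPKM in WT IM, 2.62 in *ros1* control and 0.88 in WT control. Among 11 breakdown genes 2 (18.2%) were higher in WT IM, near the 16.6% of all expressed genes, and 1 (9.09%) in *ros1* control, against 17.1%. AT1G21400, a subunit of the branched-chain keto acid dehydrogenase, had 136 FPKM in WT IM, 6.86 in *ros1* control and 21.9 in WT control.

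**Figure D4:**
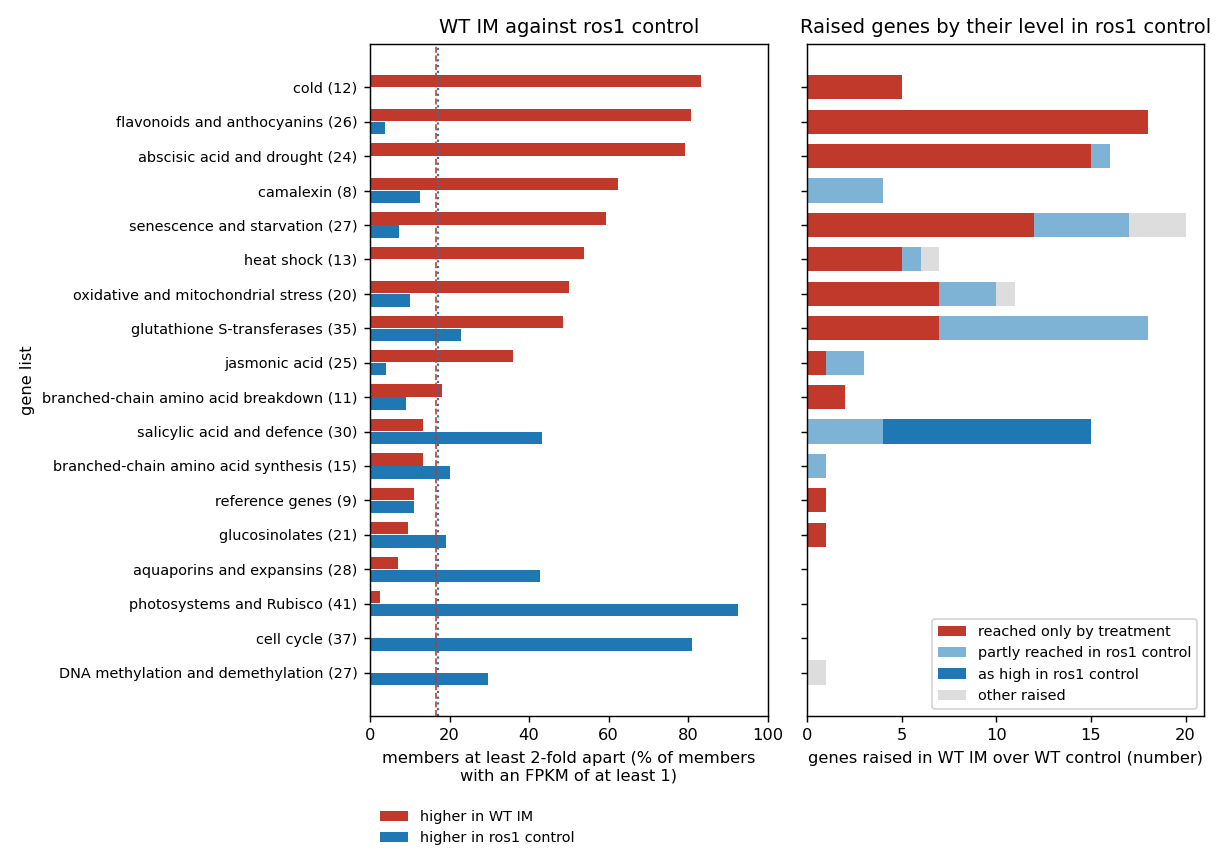
Left, the share of each list's expressed members that were at least 2-fold higher in WT IM (red) or in *ros1* control (blue), with dashed and dotted lines at 16.6% and 17.1%, the shares over 18902 genes. Right, the number of genes in each list that imazethapyr raised in the wild type, by state in *ros1* control. The as-high state (dark blue) is filled by the salicylic acid and defence list (11 genes) and by 0 genes of the other lists shown.

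Most photosystem and cell cycle genes were higher in *ros1* control. Of 41 photosystem and Rubisco genes, 1 (2.44%) was higher in WT IM and 38 (92.7%) in *ros1* control, against 16.6% and 17.1% of all expressed genes. Of the 41, 40 were at least 2-fold lower in WT IM than in WT control, against 3382 of all 18902. *RBCS1B* (AT5G38430), a small subunit of Rubisco, had 429.8 FPKM in WT IM, 4479 in *ros1* control and 3946 in WT control. *LHCB1.2* (AT1G29910), a light-harvesting protein gene, had 141 FPKM in WT IM, 3072 in *ros1* control and 1529.7 in WT control, and its reads may be split with the neighbouring *LHCB1.1*. Of 37 cell cycle genes, 0 were higher in WT IM and 30 (81.1%) in *ros1* control. The mitotic cyclin gene *CYCB1;2* (AT5G06150) had 1.91 FPKM in WT IM, 21.3 in *ros1* control and 23.7 in WT control, and the cytokinesis kinesin gene *HINKEL* (AT1G18370) had 1.31, 14.5 and 14.9 FPKM. Of 28 aquaporins and expansins, 2 (7.14%) were higher in WT IM and 12 (42.9%) in *ros1* control. *EXPA8* (AT2G40610) led the 12, at 1.52 FPKM in WT IM, 19.6 in *ros1* control and 7.79 in WT control. *GER3* (AT5G20630), a germin gene, had the widest gap toward *ros1* control among genes of at least 5 FPKM in WT IM and *ros1* control, with 10.6 FPKM in WT IM, 2867 in *ros1* control and 3294 in WT control.

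Of 27 expressed genes of DNA methylation, 0 were higher in WT IM and 8 (29.6%) in *ros1* control, against 16.6% and 17.1% of all expressed genes. With a fold of 4 in place of 2 the 8 became 0. The methyltransferase genes *CMT3* (AT1G69770), at 4.95 FPKM in WT IM, 19.6 in *ros1* control and 19.4 in WT control, and *MET1* (AT5G49160), at 7.34, 18.9 and 23.2 FPKM, act where DNA is replicated, and 0 of the 27 differed at least 2-fold between *ros1* control and WT control.

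The most abundant genes among the 543 at least 2-fold over both wild-type groups included further defence-related ones beside *PR1*, *PR2* and *PR5*. *LURP1* (AT2G14560), a gene known to be induced late by an oomycete pathogen, had 574 FPKM in WT IM, 2239 in *ros1* control and 726 in WT control. *PCR1* (AT1G14880), named for cadmium resistance, had 45.0 FPKM in WT IM, 601 in *ros1* control and 33.0 in WT control. AT5G55450, annotated as a lipid-transfer protein, had 86.1 FPKM in WT IM, 1274 in *ros1* control and 229.9 in WT control. Treatment had lowered it in the wild type, so the mutant and the treated wild type lay on opposite sides of WT control.

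A further set of genes separated *ros1* control from both wild-type groups, and it was chosen after the values were seen. *ros1* control was at least 8-fold below both WT IM and WT control in 152 genes of at least 5 FPKM in both, of which 67 were under 0.1 FPKM in the mutant. It was at least 8-fold above both in 62 genes of at least 5 FPKM in the mutant, of which 20 were under 0.1 FPKM in both wild-type groups. *FLC* (AT5G10140), the repressor of flowering, had 2.52 FPKM in WT IM, 135 in *ros1* control and 3.51 in WT control. *ESP* (AT1G54040), the epithiospecifier protein that turns glucosinolate breakdown toward nitriles, had 33.0 FPKM in WT IM, 2631 in *ros1* control and 42.2 in WT control, while *ESM1* (AT3G14210), which opposes it, had 1158, 70.0 and 1644 FPKM. *AOP2* (AT4G03060), of alkenyl glucosinolates, had 26.8 FPKM in WT IM, 578 in *ros1* control and 38.8 in WT control. In treated *ros1* plants *FLC* was at 131 FPKM, *ESP* at 792 and *ESM1* at 5.67, while *AOP2* was at 31.1, within the range of the wild-type groups. *FLC*, *ESP*, *ESM1* and *AOP2* are known to differ in expression or function between natural accessions of the species, while Col-0 is given as the accession of the plants. Whether the line differs from Col-0 at loci other than *ROS1* was not tested, and differences of sequence from the reference can lower the FPKM of a gene. Of the 152 genes, 27 are among the 1500 reached only by treatment. These include *TT7*, *UF3GT*, *MYB75*, *KIN1*, *COR15A* and AT1G76960, named above. *RD29A*, *RD20*, *SARD4* and *VAT1* are also among the 152, outside that state. The same limit holds for the low values of all these genes in *ros1* control. *PCR1*, *CRK4*, AT2G48121 and *WRKY62*, also named above, are among the 62. Whether their high values in *ros1* control go with differences of the line at other loci was not tested either.

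Of 9 reference genes, 7 differed by less than 2-fold, while *UBQ10* (AT4G05320), a polyubiquitin gene, had 1675 FPKM in WT IM, 163 in *ros1* control and 712 in WT control and *ACT2* (AT3G18780) had 184, 483 and 501 FPKM.

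Promoter sequences were compared between the states as a description. Windows from 250 bases before to 50 after the annotated start were at hand for 18798 expressed genes, and 5 motifs were searched on both strands. TTGAC, the W-box core, was present in 68.3% of 199 as-high genes, 63.2% of 500 partly reached genes, 58.7% of 530 genes at least 2-fold over both wild-type groups and 52.6% of 1488 genes reached only by treatment, against 50.5% of the 18798. ACGTG, the ABRE core, was present in 37.8% of the genes reached only by treatment, 34.8% of the partly reached and 30.2% of the as-high ones, against 27.7% of the 18798. CCGAC, the core of the cold-responsive CRT/DRE element, stood at 19.3% of the genes reached only by treatment and 14.1% of the as-high ones, against 16.4%. TGACG, the TGA-factor core, which can overlap TTGAC by 4 bases, was at 26.9% of the genes reached only by treatment and 28.6% of the as-high ones, against 23.8%. AACGG, a MYB core, was at 24.2% and 21.6% of these genes, against 26.4%. A short core occurs often by its length alone, so a match does not mark a site in use.

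**Figure D5:**
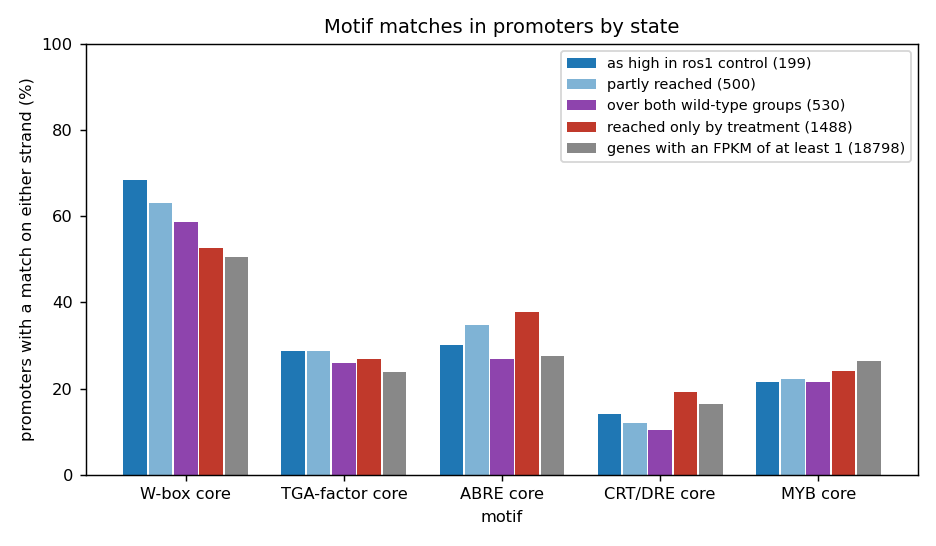
Share of promoters (250 bases before to 50 after the start) with at least 1 match on either strand of each motif core, by state. The W-box core is most frequent in the as-high genes (68.3%, against 50.5% of expressed genes) and the ABRE core in the genes reached only by treatment (37.8%, against 27.7%). The 55 genes in both the as-high and the over-both states are counted in each.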

How the data were processed

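Of the 8 RNA-seq libraries, the 4 of WT IM and *ros1* control, with the 2 of WT control as the starting level, were used. The submitters' processing notes and the paper name FastQC 0.10.1, the FASTX-Toolkit, TopHat2 with Bowtie2, and Cufflinks, on the TAIR10 genome. The authors deposited FPKM values from Cuffdiff, 1 per group over its 2 libraries, taken from 6 tables, and 0 of 80137 repeated pairs of gene and group were unequal. FPKM is scaled to mapped fragments, and the paper reports a lower share of aligned reads in *ros1* than in wild type. Reads per library are not used here, and the precision of a single value is therefore not known. The deposited tables also hold the authors' fold changes, test statistics, p-values, q-values and calls, which were not used, beyond noting which 12024 genes the sheet of this pair lists. The table of all genes gives WT IM for 31402 genes, and the other WT IM values come from sheets of listed genes. Values in treated *ros1* plants come from such sheets alone and were at hand for 17284 of the 34133 genes.

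Ratios were computed in Python 3.11.15 with pandas 2.3.3. A difference was at least 2-fold with an FPKM of at least 1 in the higher group, list medians used a pseudocount of 1, and the states were tested on simulated data. The comparison, the 20 gene lists and the rules were chosen with earlier results of these data known. Genes were named if the study names them, if they were among the 6 members of a list furthest apart among those of at least 1 FPKM in both groups, among the 10 largest ratios in each direction among genes of at least 5 FPKM in both, or among the 10 most abundant of a state. Chosen after their values were seen were *ICS1*, *EDS5*, *PBS3*, *CBP60G*, *SARD1*, *GRX480*, *PAD4*, *EDS1*, *NPR1*, *NPR3*, *NPR4*, *DMR6*, *DLO1*, *UGT76B1*, *ALD1*, *AIG1*, *WRKY33*, *GSTU24*, *SAG12*, *LEA4-5*, *NCED3*, *P5CS1*, *RD29A*, *MYB90*, *FLC* and the *CRK* genes. Of the gene IDs, 33389 match a RefSeq locus tag of TAIR10.1 once suffixes are dropped, and 5384 share a locus with another ID in the deposited tables. Promoters were read from RefSeq coordinates on TAIR10.1. The stated library kit (Illumina TruSeq RNA) does not mark strand, so overlapping genes may share reads. Alternatives were a fold of 1.5 or 4, an FPKM minimum of 5 or none, a pseudocount of 1, centring on the median ratio to WT control, the listed genes alone, as high at 0.8 of WT IM and, added after seeing the data, the table of all genes alone.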

Additional observations from a re-analysis of the deposited data

How the results depend on the processing

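With a fold of 1.5 the counts were 4865 genes higher in WT IM and 5012 higher in *ros1* control, with 371 as high, 984 partly reached, 2667 reached only by treatment and 1017 over both wild-type groups; with a fold of 4 they were 1486, 1152, 78, 216, 606 and 246. Without a minimum FPKM 4948 genes were higher in WT IM, 562 were as high, 2541 were reached only by treatment and 1409 lay over both wild-type groups. With a minimum of 5 the as-high, partly reached and over-both counts were 97, 320 and 292, and with a pseudocount of 1 the as-high and partly reached counts were 125 and 248. Listed genes alone gave 98 as high and 323 partly reached, and as high at 0.8 of WT IM gave 328. Centring (WT IM multiplied by 1.006 and *ros1* control by 0.990) and, added after seeing the data, the table of all genes alone moved none of these 6 counts by over 1.5 times. Under every setting run, genes reached only by treatment outnumbered those as high. Of 560 list counts under the alternatives, which leave out 0.8 of WT IM and the table of all genes, 63 moved by over 1.5 times, 31 of them with a fold of 4, 16 with a fold of 1.5 and 2 with centring, while 224 of the others were at 0 in both settings. No paired analysis was possible because the deposited tables hold 1 pooled value per group and no value per library, and leaving out a library was not possible for the same reason. Precision, in particular of low FPKM values, cannot be stated.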
